A study of Mus musculus with 6 samples.

Results

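The mitochondrially encoded genes were taken as all rows of the expression table with a symbol that starts with mt-, which gave 37 of 25215 genes. They comprised 13 mRNA genes, 22 tRNA genes, and 2 rRNA genes. They were followed in single melanoma cells from 6 mouse tumors, sequenced over full-length transcripts by SMART-Seq on the ICELL8 platform, which places sorted cells in wells. Cells with more than 1000 genes at TPM (transcript share scaled by length and summed to a fixed total) above 0 were used, 578 of 602, with no limit on the mitochondrial share of TPM.

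All tumors grew in C57BL/6 mice from 50000 cells injected subcutaneously, and CD45-negative cells were sorted at harvest on day 15. The B16 condition held the untreated B16-F10 melanoma tumors B16007 (96 cells) and B16008 (95 cells). The B16PD1 condition held the tumors B16PD1000 (95 cells) and B16PD1002 (98 cells) of the same line, in mice given anti-PD1 (200 µg a dose) on day 5 and again on days 8 and 11. The R499 condition held the untreated tumors R499015 (98 cells) and R499016 (96 cells) of Res499, a line that came from a relapsed B16-F10 tumor and resists checkpoint blockade. TPM keeps no read depth, so depth per cell is unknown. The median number of genes detected per cell was 3665 and 3434 (B16), 3951 and 3808.5 (B16PD1), and 3291 and 3724.5 (R499).

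The mitochondrial genome is a small circle that is transcribed from both strands into long precursors, from which tRNAs are cut out and rRNAs and mRNAs are released. Its mRNAs encode membrane-embedded subunits of respiratory complexes I, III, and IV and of the ATP synthase, complex V, while all other subunits, and complex II as a whole, come from nuclear genes. The heavy-strand and light-strand products differ greatly in gene content, and most protein genes are read from a single one of these precursors.

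Most cells carried the markers of their lineage. Dct, Tyrp1, Pmel, and Gpnmb, which serve melanin synthesis and the melanosome, were above 0 in 100% of the 578 cells, and Mlana was above 0 in 99.5%, while the lineage factors Mitf and Sox10 were above 0 in 93.6% and 65.6%. The leukocyte gene Ptprc, which encodes the CD45 used in the sort, was above 0 in 0.173% of cells. Of 15 immune markers 5 were at 0 in all cells used, among them Cd3d and Itgax, and Lyz2 was the most abundant, with a mean TPM of 32.0 over cells. The summed immune TPM per cell averaged 196 and 17.5 (B16), 33.0 and 207 (B16PD1), and 8.11 and 6.17 (R499). Of 5 endothelial markers Cdh5, Kdr, and Tek were at 0, while Egfl7 was above 0 in 21.6% of cells with a mean TPM of 48.9, all 4 keratinocyte markers were at 0, and the collagen gene Col1a1 and the receptor gene Pdgfra were at 0 among 7 fibroblast markers, of which the other 5 were above 0 in up to 1.38% of cells (Pdgfrb). Mean TPM of Egfl7 was 61.9 and 46.3 (B16), 105 and 39.2 (B16PD1), and 17.1 and 25.5 (R499), lowest in R499 (R499 minus B16 in log2(TPM + 1) -0.81, limma adjusted p = 0.258).

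Mitochondrial RNA took a widely varying part of each cell's TPM. Over the 578 cells the summed TPM of the 37 genes made up between 0.305% and 47.6% of the total, with a median of 3.42% and an interquartile range of 2.18% to 5.39%. The median share was 3.06% and 3.09% (B16), 2.97% and 3.76% (B16PD1), and 3.78% and 3.71% (R499). The R499 tumors thus lay above both B16 tumors, and B16PD1002 lay between the values of the R499 tumors. The mean over tumors was 3.07% ± 0.0254 (B16), 3.37% ± 0.562 (B16PD1), and 3.74% ± 0.0475 (R499; SD, n = 2 each).

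The upper tail of the cells set the R499 tumors further apart than the median did. Cells with at least 10% of TPM from these genes numbered 5 of 96 and 9 of 95 (B16), 9 of 95 and 10 of 98 (B16PD1), and 17 of 98 and 21 of 96 (R499). As percentages of cells these were 5.21% and 9.47% (B16), 9.47% and 10.2% (B16PD1), and 17.3% and 21.9% (R499), so that both R499 tumors stood above the other 4. The quality control of the paper kept only cells with under 10% of expression from mitochondrial genes. The 95% Wilson interval ran from 11.1% to 26.04% in R499015, from 14.8% to 31.1% in R499016, and from 5.64% to 17.8% in B16PD1002, and covers counting error only. The mean share, which weighs these cells more, was 3.96% and 4.49% (B16), 4.67% and 5.98% (B16PD1), and 6.79% and 7.21% (R499).

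**Figure D1:**
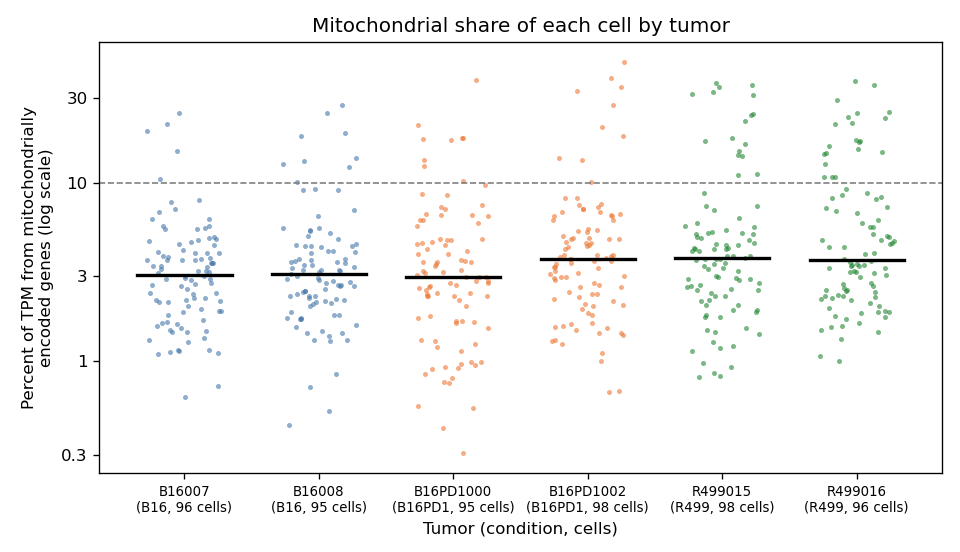
Share of TPM from mitochondrially encoded genes in each of the 578 cells (points, log scale) by tumor, with the median of each tumor as a black line and 10% as a dashed line. Both R499 tumors have more points above the dashed line (17 and 21) than any of the other 4 tumors (5 to 10).

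The shares were compared by exact permutation, which cannot give a small p with 2 against 2 tumors. By a two-sided exact permutation test over the 6 assignments of 4 tumors, the difference in median share was 0.292 percentage points for B16PD1 minus B16 (p = 1), 0.669 for R499 minus B16 (p = 0.33), and 0.377 for R499 minus B16PD1 (p = 0.667), where 0.33 is the smallest p that 2 against 2 tumors can give. The percentage of cells at or above 10% was 12.3 points higher in R499 than in B16 (exact p = 0.33) and 9.77 points higher than in B16PD1 (exact p = 0.33), and 2.50 points higher in B16PD1 than in B16 (exact p = 0.667). With cells under 10% only, the difference in median share was 0.364 points for R499 minus B16 and 0.0917 for R499 minus B16PD1, and with cells of over 2000 genes 1.04 and 0.625. The mean share, an alternative to the median, was 1.10 points higher in B16PD1 than in B16, 2.78 higher in R499 than in B16, and 1.68 higher in R499 than in B16PD1, each without overlap (exact p = 0.33 each). Of these 9 tests, the 3 on the percentage of cells were added after the values had been seen. Leaving out B16PD1002 turned the B16PD1 minus B16 difference in median share to -0.105 points, and leaving out B16PD1000 turned R499 minus B16PD1 to -0.0197. For the percentage of cells at or above 10%, B16PD1 minus B16 was 0.365 points without B16007 and 4.63 without B16008.

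In 5 of 6 tumors, cells at or above 10% had more genes detected than the rest. Their median was 3744 and 3830 genes in the R499 tumors, against 3141 and 3682 in the cells of these tumors under 10%. In the B16 tumors the medians were 4173 and 4466 at or above 10%, against 3647 and 3388.5 under it. In B16PD1000 they were 4284 and 3807.5, and in B16PD1002, the exception, 3741.5 and 3838.5. The melanocyte lineage markers Dct, Pmel, Tyrp1, Mlana, and Tyr were above 0 in 100% of the 71 cells at or above 10%, Mitf in 98.6%, and Sox10 in 69.0%. Ptprc was above 0 in none of them, while Lyz2 was above 0 in 7.04%, against 2.76% of the other cells, Csf1r in 4.23% against 1.38%, and Laptm5 in 2.82% against 1.38%. Fcer1g went the other way, with 4.23% against 5.52%, as did Tyrobp, with 0% against 1.18%, and S100a8, with 0% against 0.592%, and Cd3e, Adgre1, and Itgam were above 0 in none of the 71 cells. Over the cells of a tumor the Pearson correlation of the log2 share with the number of genes detected ranged from 0.198 in R499016 to 0.499 in B16PD1000. Both quantities come from the same library of each cell.

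The mRNA genes carried most of the mitochondrial TPM, which does not give the amounts of mRNA and rRNA in the cells. How well the libraries captured rRNA was not tested. In a cell's mitochondrial TPM, averaged over the cells of a tumor, they made up 92.6% ± 0.670 (SD, n = 6 tumors), the rRNA genes 7.41% ± 0.670 (SD, n = 6), and the tRNA genes 0%. The rRNA part was 8.23% and 7.60% (B16), 6.20% and 7.48% (B16PD1), and 7.66% and 7.27% (R499). B16PD1000 was lowest, and the R499 tumors lay within the range of the others.

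The rRNA genes encode the RNAs of the mitochondrial ribosome, mt-Rnr1 that of the small subunit and mt-Rnr2 that of the large subunit. Mean TPM of mt-Rnr1 was 2229 and 2309 (B16), 1718 and 3152 (B16PD1), and 3376 and 3134 (R499). Mean TPM of mt-Rnr2 was 1423 and 1257 (B16), 1362 and 1880.4 (B16PD1), and 1831 and 1945 (R499). On this per-length scale mt-Rnr1 exceeded mt-Rnr2 in every tumor, with a ratio of mean TPM of 1.63 ± 0.215 (SD, n = 6). The rRNA genes were above 0 in 97.4% and 98.1% of cells.

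Among the respiratory complexes, complex IV took the largest part of the mitochondrial TPM, 35.9% ± 1.30 (SD, n = 6), with 3 genes. Complex V followed with 25.4% ± 1.80 from 2 genes, then complex I with 20.6% ± 1.35 from 7 genes, and complex III with 10.8% ± 0.750 from its single gene. Per gene the order was different: a complex V gene averaged 8147 TPM, a complex IV gene 6210.04, the complex III gene 5219, and a complex I gene 1538. Complex IV took 34.1% and 35.01% (B16), 38.0% and 35.7% (B16PD1), and 36.2% and 36.2% (R499). Complex I took 22.3% and 20.1% (B16), 21.5% and 21.2% (B16PD1), and 18.5% and 19.9% (R499). The R499 tumors were the lowest for complex I, by a margin smaller than the gap between the B16 tumors.

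**Figure D2:**
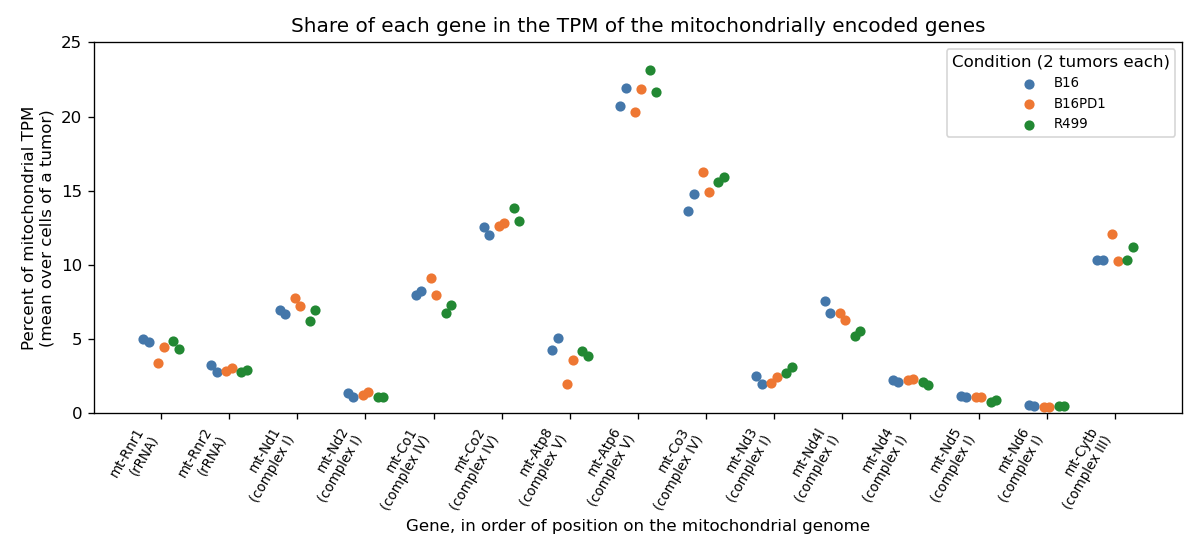
Percent of mitochondrial TPM from each of the 15 genes above 0 (mean over the cells of a tumor, 1 point per tumor), in order of position on the mitochondrial genome. mt-Atp6 is highest in all 6 tumors, between 20.3% and 23.1%, and mt-Nd6 lowest, between 0.419% and 0.544%.

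Complex V is represented by mt-Atp6, which forms part of the proton channel, and mt-Atp8, a short membrane subunit. mt-Atp6 was the most abundant of the 37 genes in all 6 tumors. Its mean TPM was 8429.6 and 10872 (B16), 11188 and 14752 (B16PD1), and 17791 and 17159 (R499). In mean TPM the R499 tumors were above all others, and the B16 tumors below. In mean log2(TPM + 1), B16PD1000 was the lowest of the 6, at 12.11 against 12.54 and 12.72 in B16. By mean TPM over cells it ranked 2 among all 25215 genes. mt-Atp8 had a mean TPM of 2064 and 2624 (B16), 1622 and 3496 (B16PD1), and 4324 and 3439 (R499). The B16PD1 tumors spanned both B16 tumors and overlapped R499. Only 39.6% of cells had mt-Atp8 above 0, and every cell with mt-Atp8 above 0, 229 in all, also had mt-Atp6 above 0.

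The catalytic core of complex IV, cytochrome c oxidase, is made of mt-Co1, mt-Co2, and mt-Co3. mt-Co3 was second in abundance, with a mean TPM of 5340.1 and 6403 (B16), 7328 and 8288 (B16PD1), and 9494 and 10714 (R499). mt-Co2 followed with 4947 and 5612 (B16), 5853 and 7567 (B16PD1), and 9322 and 9539.6 (R499). For both genes mean TPM did not overlap between conditions, with B16 lowest and R499 highest, while in mean log2(TPM + 1) B16PD1 overlapped B16. mt-Co1, the subunit that holds the site of oxygen reduction, had 2896 and 3077 (B16), 3654 and 3823 (B16PD1), and 3355 and 4568 (R499). Here R499 spanned the B16PD1 tumors. As a part of the mitochondrial TPM, mt-Co1 was lower in the R499 tumors (6.75% and 7.27%) than in the other 4 (7.94% to 9.11%).

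Complex III has a single mitochondrial gene, mt-Cytb, which encodes cytochrome b. Its mean TPM was 3690.2 and 4267 (B16), 4537 and 5134 (B16PD1), and 6023 and 7661 (R499), with no overlap between conditions. mt-Cytb and mt-Co1 were above 0 in all 578 cells, the only members of which this was true.

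The 7 complex I genes encode the membrane arm of NADH dehydrogenase and differed widely in level. mt-Nd1 and mt-Nd4l were the most abundant. mt-Nd1 had a mean TPM of 2577 and 2609.6 (B16), 3281 and 3829 (B16PD1), and 3991 and 4935 (R499). mt-Nd4l had 2795 and 2625 (B16), 2582 and 3496 (B16PD1), and 3015 and 3493 (R499). Mean TPM of mt-Nd1 did not overlap between conditions, while that of mt-Nd4l did between B16PD1 and both others. mt-Nd3 had 1212 and 1149 (B16), 1376 and 1606 (B16PD1), and 2471 and 2493 (R499), again without overlap. In mean log2(TPM + 1), B16PD1 overlapped both other conditions for mt-Nd1 and mt-Nd3. The remaining genes averaged 1103 TPM (mt-Nd4), 671 (mt-Nd2), 448 (mt-Nd5), and 287 (mt-Nd6) over the 6 tumors.

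mt-Nd6 is the only mRNA gene of the light strand and was the least abundant of the 15 genes above 0. Its mean TPM was 217 and 259 (B16), 251 and 276 (B16PD1), and 356 and 361 (R499). mt-Nd5, its neighbor on the other strand, had 1.59 ± 0.230 (SD, n = 6) times the mean TPM of mt-Nd6. The use of strand in assigning reads is not given, so these values may not separate the strands. The part of mt-Nd5 in the mitochondrial TPM was 0.775% and 0.846% in R499 and between 1.05% and 1.14% in the other 4 tumors. mt-Nd4l was likewise a smaller part in R499, 5.17% and 5.52%, than in the other tumors, 6.31% to 7.53%, and mt-Nd3 a larger part, 2.70% and 3.08%, than in the others, 1.95% to 2.52%. Differences in these parts were not tested.

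The order of levels was kept at most steps. In all 6 tumors mean TPM had the descending order mt-Atp6, mt-Co3, mt-Co2, mt-Cytb, mt-Co1, with ratios between neighbors of 1.69, 1.11, 1.37, and 1.47. The order also descended in all 6 tumors at each step from mt-Rnr2 to mt-Nd4, mt-Nd2, mt-Nd5, and mt-Nd6. Several neighbors in the middle of the order could not be ranked: mt-Co1 was above mt-Nd1 in 3 of 6 tumors, mt-Nd1 above mt-Nd4l in 4, mt-Atp8 above mt-Rnr1 in 4, and mt-Nd3 above mt-Rnr2 in 3.

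All 22 tRNA genes, which supply the amino acids for mitochondrial translation, were listed at 0 in each of the 602 cells. They are 59 to 75 bases long, and 8 of them lie on the strand of mt-Nd6. No gene of up to 100 bases had a value above 0 in any cell: of 25215 genes 1206 had a longest annotated transcript of this length, the 22 tRNA genes among them. The shortest gene with a value above 0, Snora64, had 134 bases and was above 0 in 1 cell. A listed 0 is thus shared by all genes of this length and says nothing of the amount of tRNA in the cells. The shortest and the longest of the 22 are given to show the size of transcripts that were at 0, in the orientation of the gene, as annotated in GENCODE on GRCm38: mt-Ts2 (chrM:11613-11671, + strand), a serine tRNA, and mt-Tl1 (chrM:2676-2750, + strand), a leucine tRNA.
mt-Ts2: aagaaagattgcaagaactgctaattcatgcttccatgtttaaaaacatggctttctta
mt-Tl1: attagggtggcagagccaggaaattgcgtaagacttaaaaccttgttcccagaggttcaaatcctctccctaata

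Detection of the other 15 genes was low for the shortest. mt-Atp8 (204 bases) was above 0 in 39.6% of cells, mt-Nd4l (297 bases) in 79.6%, mt-Nd3 (348 bases) in 59.9%, and mt-Nd6 (519 bases) in 51.7%. The 11 genes of 681 bases and more were above 0 in 89.6% (mt-Nd2) to 100% of cells. The 4 shortest mRNAs were not the 4 with the lowest mean TPM, as mt-Atp8 averaged 2928 over the tumors, against 1103 for mt-Nd4. In the cells where each was above 0, median TPM was 4565 for mt-Atp8 (229 cells) and 7462 for mt-Atp6 (573 cells). These are different sets of cells. Over the 15 genes the Spearman correlation of length with detection was 0.508, and with mean TPM -0.221. Genes on the same transcript are not independent, and these values describe the 15 genes only.

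**Figure D3:**
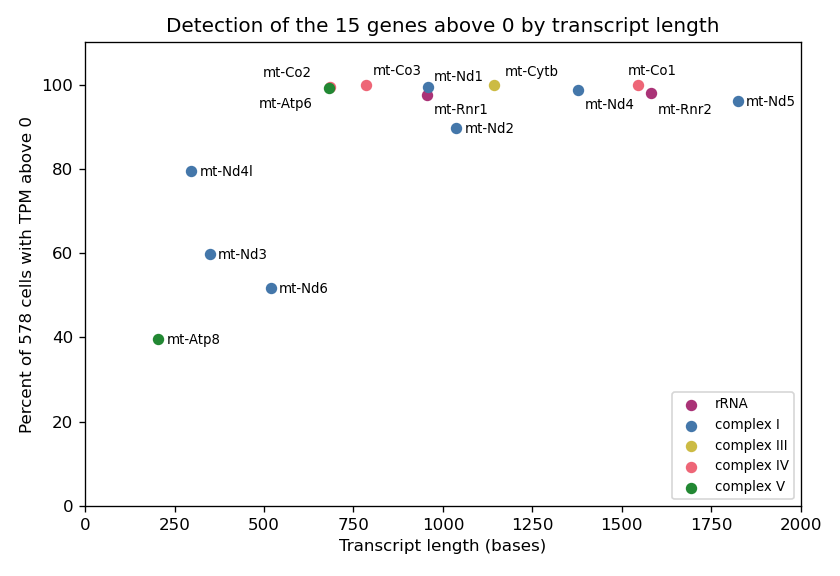
Percent of the 578 cells with TPM above 0 against transcript length in bases for the 15 genes above 0, colored by rRNA or complex. The 4 shortest genes, mt-Atp8, mt-Nd4l, mt-Nd3, and mt-Nd6, lie between 39.6% and 79.6%, and the 11 longer genes at 89.6% or more.

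Detection also moved with the number of genes detected in a cell. From the 115 cells with the fewest genes (median 1957) to the 159 cells with the most (median 5043), the percentage of cells above 0 went from 11.3% to 60.4% for mt-Atp8, from 25.2% to 86.2% for mt-Nd3, from 16.5% to 77.4% for mt-Nd6, and from 47.0% to 96.9% for mt-Nd4l. mt-Nd2 went from 67.0% to 99.4%. mt-Co1 and mt-Cytb were above 0 in 100% of cells in both classes. A cell had a median of 11 of the 13 mRNAs above 0 and a lowest number of 4, and all 13 were above 0 in 167 of 578 cells. The percentage of cells with all 13 was 21.9% and 22.1% (B16), 29.5% and 31.6% (B16PD1), and 34.7% and 33.3% (R499). The conditions did not overlap in this percentage. The median number of genes detected was lowest in R499015. The median number of mRNAs above 0 also differed with the mitochondrial share, from 9 in cells under 2% to 13 in cells at or above 10%. The part of either was not tested.

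Pairs of genes that overlap on the genome share bases, and their values cannot be fully separated. The stop codon of mt-Atp8 lies inside mt-Atp6: the genes share 43 bases, chrM:7927-7969, and the start of mt-Atp6 and the end of mt-Atp8 are shown in capitals within chrM:7915-7981. mt-Nd4l and mt-Nd4 share 7 bases, chrM:10167-10173, and the capitals within chrM:10155-10185 mark the start codon of mt-Nd4 and the stop codon of mt-Nd4l. mt-Nd5 and mt-Nd6 face each other and share 14 bases, chrM:13552-13565. The capitals within chrM:13540-13577 mark the stop codon of mt-Nd6, read here from the opposite strand, and then that of mt-Nd5. All 3 stretches are on the + strand of GRCm38.
mt-Atp8 and mt-Atp6: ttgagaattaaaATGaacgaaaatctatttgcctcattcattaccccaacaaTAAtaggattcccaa
mt-Nd4l and mt-Nd4: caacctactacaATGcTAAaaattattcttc
mt-Nd5 and mt-Nd6: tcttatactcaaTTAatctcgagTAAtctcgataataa

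Genes read from the same bicistronic stretch did not have the same TPM, which does not show that the amounts of their RNA differed. Mean TPM of mt-Atp8 was 0.219 ± 0.0397 (SD, n = 6) times that of mt-Atp6, with values from 0.145 in B16PD1000 to 0.245 in B16007. In the 229 cells with both above 0 the ratio had a median of 0.274 (mean of 6 tumor medians, SD 0.0851). mt-Nd4l stood above mt-Nd4 by a factor of 2.77 ± 0.364 (SD, n = 6), from 2.27 in R499015 to 3.36 in B16007. The overlaps and the low detection of the short partner bear on these ratios, and their part was not tested.

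At the 3' end, 3 of the 13 mRNA genes, mt-Co3, mt-Nd4, and mt-Cytb, end in the genome with an incomplete stop codon, which in the mature mRNA is completed by the poly(A) tail. The last 24 bases of each are given with the lone base of the stop codon in capitals, at chrM:9367-9390, chrM:11521-11544, and chrM:15265-15288 on the + strand.
mt-Co3: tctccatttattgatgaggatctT
mt-Nd4: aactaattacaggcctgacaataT
mt-Cytb: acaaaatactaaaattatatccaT

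Near-identical copies of mitochondrial genes in the nuclear genome could share reads with the members. Of the nuclear genes of the annotation, 11 pseudogenes matched 9 of the 15 genes at 95% identity or more over at least 100 bases, and none of the 11 had a row in the table. A cluster on chromosome 1 held copies of mt-Atp6 (Gm10925, 100% identical over 678 bases), mt-Co2 (Gm28661, 100% over 681), mt-Co3 (Gm28437, 100% over 783), and mt-Nd4l (Gm10222, 100% over 294). It also held copies of mt-Nd4 (Gm28439, 100% over 876), mt-Nd3 (Gm28438, 99.7% over 345), and mt-Co1 (Gm29216, 99.8% over 483). The values of the 9 genes with a copy are therefore uncertain as to their source to the extent that reads were split. For mt-Cytb, mt-Nd1, mt-Nd6, mt-Atp8, and the 2 rRNA genes no annotated nuclear gene met these limits, which says nothing of copies outside annotated genes.

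Between cells of a tumor, the spread of the well-detected members covered a wide range. The SD over cells of log2(TPM + 1), as a mean of the 6 tumors, was 1.18 for mt-Cytb, 1.18 for mt-Co1, 1.31 for mt-Co3, 1.57 for mt-Co2, and 1.77 for mt-Atp6. The rRNA genes varied more, with 2.37 for mt-Rnr1 and 2.05 for mt-Rnr2, and mt-Nd2 most, with 3.03. Cells at 0 weigh on these values. Among cells above 0 the SD of log2 TPM was 1.56 for mt-Nd2, below 1.80 for mt-Rnr1 and 1.61 for mt-Rnr2. The median over the 11 members above 0 in at least 85% of cells was 1.69, against 2.19 over 720 other genes of that detection, whose 10th and 90th percentiles were 1.14 and 2.85, so that mt-Nd2 lay above the latter. The short genes had the widest spread, 5.94 for mt-Atp8, 5.31 for mt-Nd3, 4.71 for mt-Nd4l, and 4.34 for mt-Nd6, and among cells above 0 their SD of log2 TPM was 1.66, 1.66, 1.41, and 1.62. The share of all members together had a coefficient of variation over cells of 0.983 and 1.04 (B16), 1.16 and 1.32 (B16PD1), and 1.24 and 1.07 (R499).

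Members varied together from cell to cell. Pearson correlations of log2(TPM + 1) were taken over the cells of each tumor and averaged over the 6 tumors. All 105 pairs of the 15 genes were positive, from 0.267 (mt-Nd3 with mt-Nd4l) to 0.816 (mt-Co3 with mt-Cytb), with a median of 0.504. mt-Co2 with mt-Co3 reached 0.793, mt-Co2 with mt-Atp6 0.743, and mt-Rnr1 with mt-Rnr2 0.697. Among the 9 mRNAs above 0 in at least 85% of cells the median was 0.584 for 9 pairs within a complex and 0.653 for 27 pairs between complexes, and it was 0.531 for 18 pairs of these mRNAs with an rRNA. The cells share the TPM scale and the number of genes detected, with which mt-Nd3 (0.466), mt-Nd6 (0.451), and mt-Atp6 (0.410) also correlated.

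Composition moved with the mitochondrial share. From the 127 cells under 2% to the 71 cells at or above 10%, the part of complex V in the mitochondrial TPM went from 19.2% ± 3.34 (SD, n = 6 tumors) to 32.2% ± 2.27, and that of mt-Atp6 from 18.4% ± 2.62 to 26.9% ± 1.97. mt-Cytb went from 14.3% ± 1.38 to 8.54% ± 1.24, mt-Co1 from 9.09% ± 0.768 to 5.30% ± 0.941, and mt-Nd5 from 1.23% ± 0.212 to 0.641% ± 0.0741. mt-Atp8 went from 0.731% ± 0.797 to 5.30% ± 1.18, while the percentage of cells with it above 0 went from 4.72% to 93.0%. The ranges of 1 SD did not overlap for any of these parts. In between, at 2 to 5% (294 cells) and 5 to 10% (86 cells), complex V took 24.9% ± 2.28 and 30.3% ± 3.82, and mt-Cytb 10.2% ± 0.921 and 9.12% ± 0.707. The rRNA part was 6.65% ± 1.28 under 2% and 8.42% ± 2.49 at or above 10%, a difference within the spread. Over the cells of a tumor the part of complex V correlated with the log2 share at 0.405 on average (0.177 to 0.568), and mt-Cytb at -0.367 (-0.456 to -0.258). The share is the denominator of each part, and the number of genes detected differed too, with a median of 2929 under 2%, 3717 at 2 to 5%, 4333.5 at 5 to 10%, and 3957 at or above 10%. Its role was not tested.

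Genes outside the members were compared with the summed mitochondrial TPM. Of 2796 other genes above 0 in at least 50% of cells, the highest median over 6 tumors of the Pearson correlation over cells with log2 of the summed TPM was 0.456 for Malat1, a nuclear noncoding RNA, followed by Rpl36a (0.344), a ribosomal protein gene, Cks2 (0.328), which acts on cyclin-dependent kinases, Atp5k (0.323), the gene of a nuclear-encoded ATP synthase subunit, and Spcs1 (0.319), a signal peptidase subunit. The median over these genes was 0.0713. At the other end stood Ubb (-0.487), a ubiquitin gene with a mean TPM of 25289, and Actb (-0.445). TPM of a cell sums to a fixed total, so that a larger part of 1 gene leaves less for the rest.

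For the conditions, each gene was compared over tumors: the mean over cells of log2(TPM + 1) in each of 6 tumors was fitted with limma across 11479 genes, with Benjamini-Hochberg adjustment over all of them. The 3 contrasts share tumors, B16 entering 2 of them. Of the 37 members 15 passed the filter on detection (above 0 in more than 5 cells), and the 22 tRNA genes did not. Differences are given on the log2(TPM + 1) scale, on which the number of cells at 0 weighs heavily.

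The question of what anti-PD1 leaves in the same line was addressed by B16PD1 minus B16. mt-Nd3 had the highest difference, 0.57 (SE 0.42, adjusted p = 0.942), and mt-Rnr1 the lowest, -0.51 (SE 0.26, adjusted p = 0.942). For mt-Nd3, mean log2(TPM + 1) was 6.11 and 5.26 (B16) and 5.72 and 6.78 (B16PD1), so that B16PD1000 lay between the B16 tumors. In mean log2(TPM + 1), mt-Rnr1 was 10.04 and 9.93 in the B16 tumors and 9.03 and 9.92 in the B16PD1 tumors, so that B16PD1000 stood apart and B16PD1002 was just under B16. Of the 15 genes 11 had a difference above 0, with a median of 0.19 against 0.01 over all genes tested. By limma none of the 15 members and 0 of 11479 genes (0%) passed an adjusted p of 0.05, and 0 members and 581 genes (5.06%) had an unadjusted p under 0.05. Both B16PD1 tumors were above both B16 tumors for 3 members, mt-Co1, mt-Cytb, and mt-Nd6, against 17.5% of all genes, and below them for 1 member, mt-Rnr1, against 16.2%. Without B16PD1002 the median difference of the members turned to -0.12, with 5 of 15 above 0, and without B16PD1000 it was 0.35, with 14 above 0. With cells of over 2000 genes it was 0.35 with 14 above 0, and with log2 of mean TPM 0.32 with 15 above 0, each with 6 members at an unadjusted p under 0.05, against 618 of 11453 and 535 of 11479 genes in those fits.

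R499 minus B16 addressed the resistant line against its parent, and here nearly all members stood higher. The difference was 1.33 (SE 0.42, adjusted p = 0.239) for mt-Nd3, 1.11 (SE 0.42, adjusted p = 0.302) for mt-Atp8, 0.92 (SE 0.31, adjusted p = 0.255) for mt-Nd6, and 0.67 (SE 0.17, adjusted p = 0.167) for mt-Co3, the smallest adjusted p of the members. Without a single tumor, mt-Nd3 lay between 0.80 and 1.85 and mt-Atp8 between 0.70 and 1.52. In mean log2(TPM + 1), mt-Co3 was 11.91 and 12.13 in the B16 tumors and 12.58 and 12.79 in the R499 tumors, without overlap. mt-Nd3 was 6.11 and 5.26 in B16 and 6.49 and 7.53 in R499. The differences of mt-Rnr1, mt-Cytb, mt-Atp6, and mt-Co2 were 0.55, 0.55, 0.55, and 0.53. mt-Nd4l alone was below 0, at -0.16 (SE 0.32, adjusted p = 0.872), but its sign turned in several alternatives (0.29 with cells of over 2000 genes, 0.26 with log2 of mean TPM).

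Of the 15 members 14 had a difference above 0 in R499 minus B16, with a median of 0.53 against -0.08 over all genes tested. By limma 0 of the 15 passed an adjusted p of 0.05, as did 19 of 11479 genes (0.166%), and 8 members, all higher in R499, had an unadjusted p under 0.05, against 1457 genes (12.7%). Without a single tumor that number was between 3 and 9, against 733 to 1436 genes, and with genes detected as a covariate 3, against 815 genes. With that covariate the median difference of the members was 0.51, with 15 above 0. Both R499 tumors were above both B16 tumors for 13 of 15 members, against 12.2% of all genes, and below them for 0 members, against 32.6%. With cells at or above 10% mitochondrial share left out, the median difference of the members was 0.16, 12 of 15 were above 0, and 1 had an unadjusted p under 0.05, against 1188 of 11264 genes. With cells of over 2000 genes, 3 members, mt-Co3, mt-Co2, and mt-Atp6, were among 32 of 11453 genes that passed the adjusted threshold, and with the mean of each cell subtracted, 1, mt-Co3, was among 48 of 11479.

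R499 minus B16PD1 compared the untreated resistant line with the treated parent line, so that line and treatment cannot be told apart. mt-Atp8 had the highest difference, 1.21 (SE 0.42, adjusted p = 0.330), though it was -0.32 with genes detected as a covariate and 0.50 without B16PD1000. It was followed by mt-Rnr1 with 1.06 (SE 0.26, adjusted p = 0.211), mt-Nd3 with 0.76 (SE 0.42, adjusted p = 0.522), and mt-Atp6 with 0.68 (SE 0.20, adjusted p = 0.253). Without B16PD1000 these 3 were 0.61, 0.23, and 0.30. In mean log2(TPM + 1), mt-Rnr1 was 10.46 and 10.61 in the R499 tumors, above 9.03 and 9.92 in the B16PD1 tumors. mt-Nd4l was lowest, at -0.42 (SE 0.32, adjusted p = 0.657), but it was 0.11 with log2 of mean TPM and 0.51 with genes detected as a covariate. Of 15 members 14 had a difference above 0, with a median of 0.41 against -0.09 over all genes tested.

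In this contrast limma passed 0 of 15 members and 14 of 11479 genes (0.122%) at an adjusted p of 0.05, and 5 members, all higher in R499, had an unadjusted p under 0.05, against 1235 genes (10.8%). Both R499 tumors were above both B16PD1 tumors for 8 members, against 10.5% of all genes, and below them for 0, against 32.7%. Without B16PD1000 the median difference of the members was 0.18, with 9 of 15 above 0 and 1 at an unadjusted p under 0.05, against 1004 genes. With cells at or above 10% left out it was 0.14, also with 9 above 0. With genes detected as a covariate the median was 0.39 with 14 above 0, and 1 member had an unadjusted p under 0.05, against 623 genes. With the mean of each cell subtracted, mt-Rnr1 and mt-Atp6 were among 48 genes that passed the adjusted threshold, against 14 without it.

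**Figure D4:**
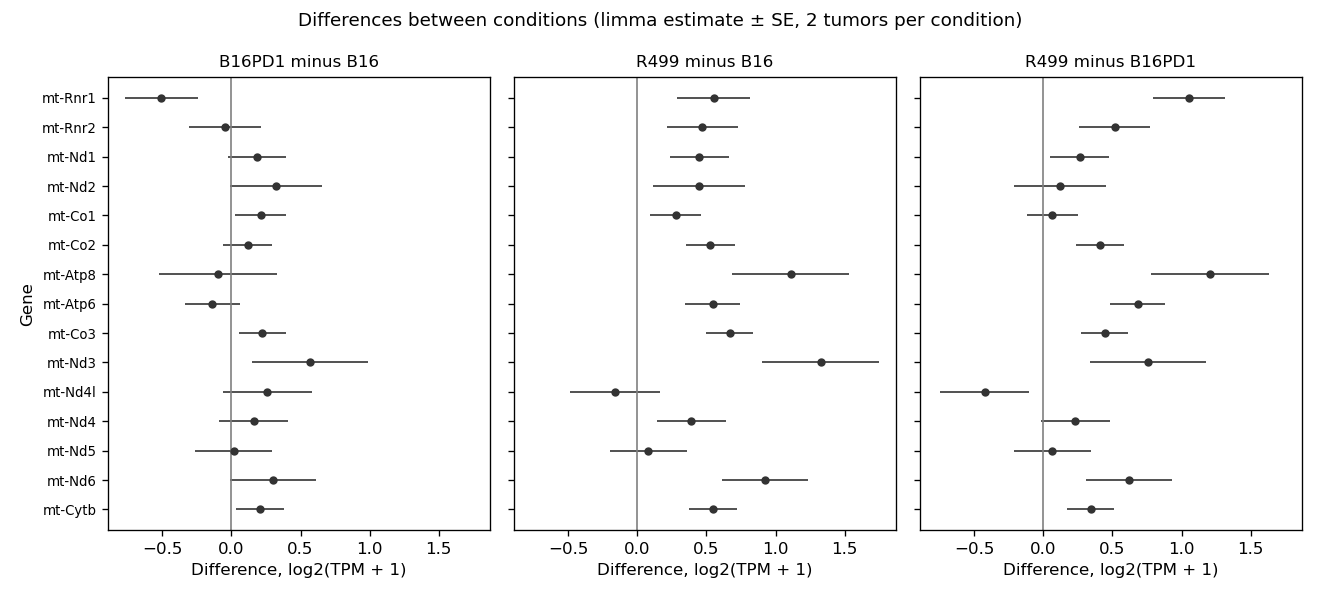
Difference in log2(TPM + 1) between conditions for the 15 members tested (limma estimate, bars ± SE, 2 tumors per condition), in order of position on the mitochondrial genome. In R499 minus B16 all points but mt-Nd4l (-0.16) lie above 0, up to 1.33 for mt-Nd3, and no member passed an adjusted p of 0.05 in any of the 3 contrasts.

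The nuclear-encoded partners of the members were examined from fixed lists, of which 76 subunit genes of complexes I to V had a row and were tested. In R499 minus B16, 67 of 76 had a difference above 0, with a median of 0.38 against -0.08 over all genes, 18 at an unadjusted p under 0.05 above 0 and 1 below. Of all genes 1457 (12.7%) were at that level, 335 of them above 0. By complex the median was 0.42 for the 36 complex I genes, 0.21 for the 4 complex II genes, 0.37 for the 9 complex III genes, 0.51 for the 11 complex IV genes, and 0.32 for the 16 complex V genes. Uqcrb, a small subunit of complex III, was the only subunit gene past the adjusted threshold (difference 1.49, SE 0.27, adjusted p = 0.0442). Its mean TPM was 1108 and 1001.9 (B16), 1087 and 1013 (B16PD1), and 1681 and 1479 (R499), so that R499 stood apart while B16 and B16PD1 overlapped. The call was lost in 11 of 18 alternatives, among them 5 of the 6 in which a tumor was left out. With log2 of mean TPM the difference was 0.58, and in the other 10 it lay between 1.10 and 1.96.

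The most abundant nuclear partners were short accessory subunits and the catalytic beta subunit of ATP synthase. Uqcrq averaged 3433 TPM ± 443 (SD, n = 6 tumors), Atp5b 3209.8 ± 435, Uqcr11 3074 ± 582, Uqcr10 2952 ± 346, and Cox5b 2642 ± 319. Uqcr11, a complex III subunit, had 2925 and 2459 in the B16 tumors and 3821 and 3700.05 in the R499 tumors (difference 0.56, SE 0.22, adjusted p = 0.321). In B16PD1 minus B16, 60 of the 76 had a difference above 0 with a median of 0.22, and in R499 minus B16PD1, 53 with a median of 0.20. None of the 76 passed in either contrast by limma, with 6 and 9 at an unadjusted p under 0.05, against 581 (5.06%) and 1235 (10.8%) of all genes. Over the cells of a tumor the summed TPM of the 76 genes correlated with that of the members at 0.0595 on average (-0.0561 to 0.233).

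Of 39 nuclear factors of mitochondrial DNA maintenance, transcription, and RNA processing, none passed in any contrast by limma. In R499 minus B16, 11 of 39 had a difference above 0, with a median of -0.13 and 3 genes at an unadjusted p under 0.05, all lower, against 12.7% of all genes, most of them lower too. In R499 minus B16PD1 the median was -0.17 with 1 gene higher and 5 lower at that level (10.8% of all genes), and in B16PD1 minus B16 it was 0.05 with 2 and 1 (5.06% of all genes). Slirp, which binds mitochondrial mRNAs, was the most abundant, with a mean TPM of 1125 and 1244 (B16), 1433 and 1648 (B16PD1), and 1248 and 1133 (R499). Its difference in B16PD1 minus B16 was 1.03 (SE 0.28, adjusted p = 0.942). Rexo2, an exonuclease for short RNAs, averaged 233 TPM and Ssbp1, which coats single-stranded mitochondrial DNA, 176.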

How the data were processed

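The authors aligned the reads of single cells with STAR and quantified them with RSEM, and deposited the values as TPM per gene and cell. The submitters' processing notes name the build mm10. Versions and annotation are not given in the sources used here, nor is the use of strand. TPM of a cell summed to between 999999.44 and 1000000.59. Cell columns carry tumor numbers and were assigned to conditions by name. A gene's value in a tumor was the mean over cells of log2(TPM + 1), for genes above 0 in more than 5 cells, fitted with limma 3.58.1 in R 4.3.3 (trend, two-sided, Benjamini-Hochberg, threshold 0.05), after a test on simulated data. Shares were compared by exact permutation. Named genes were all mRNA and rRNA members, the most abundant nuclear subunits and factors and any past the threshold, the genes most and least like the summed mitochondrial TPM, and cell type markers picked after their values had been seen. The members and lists were chosen with earlier results of these data known. Of the gene IDs, 25103 matched GENCODE vM21 on GRCm38, used for positions, lengths, and sequences. Nuclear copies were found with blastn 2.17.0. Doublets were not called. Alternatives changed the cells, pseudocount, gene filter, scaling, covariate, and tumors.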

Additional observations from a re-analysis of the deposited data

How the results depend on the processing

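No paired analysis was possible because the cell columns carry tumor numbers and not the replicate numbers of the labels. The paper also describes no pairs: the 6 tumors came from separate mice, 2 per condition. A replicate number shared between conditions is therefore not known to link tumors, and the fits treated the tumors as unpaired. In R499 minus B16, 19 genes passed, against 7 with cells under 10% mitochondrial share, 32 with cells of over 2000 genes, 7 with pseudocount 10, 0 with log2 of mean TPM, 4 with no filter on genes, 0 with limma without a trend, 1 with genes detected as a covariate, 48 with the cell mean subtracted, and 0 to 24 without a single tumor. In R499 minus B16PD1, 14 passed, against 8 under 10%, 23 with pseudocount 0.1, 3 with pseudocount 10, 0 with log2 of mean TPM, 0 without a trend, 0 with the covariate, 48 with the cell mean subtracted, and 0 to 22 without a single tumor. In B16PD1 minus B16, 0 passed, against 7 with no filter and 0 to 2 without a single tumor. A condition left with a lone tumor is assumed to vary like the others.

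Of the mitochondrial genes 0 passed in R499 minus B16, against 3 with cells of over 2000 genes and 1 with the cell mean subtracted, and 0 in R499 minus B16PD1, against 2 with the cell mean subtracted. Subtracting the cell mean moved the median over all genes from -0.08 to 0.04 in R499 minus B16 and from -0.09 to 0.05 in R499 minus B16PD1, and the passing genes that were higher from 13 of 19 to 37 of 48 and from 9 of 14 to 38 of 48. The cause was not tested. The difference in median share was -0.105 to 0.689 without a single tumor in B16PD1 minus B16 and -0.0197 to 0.775 in R499 minus B16PD1. The difference in cells at or above 10% was chosen after the values had been seen. The mRNA part of mitochondrial TPM was 93.4% as a median over cells and the rRNA part 6.57%. As a ratio of sums, complex III took 9.44%, complex IV 33.8%, and complex V 29.3%.

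Single genes changed sign in B16PD1 minus B16: mt-Rnr1 (0.0367 with log2 of mean TPM), mt-Rnr2 (0.11 with all cells, 0.0484 over 2000 genes, 0.00199 with pseudocount 10, 0.26 with log2 of mean TPM, 0.0160 with the covariate), mt-Atp8 (0.10 over 2000 genes, 0.0329 with log2 of mean TPM, 0.45 with the covariate), mt-Atp6 (0.27, 0.42, and 0.0120 in the same 3), mt-Nd5 (-0.0245 under 10%, -0.0680 with pseudocount 0.1, -0.11 with the covariate, -0.00790 with the cell mean subtracted), mt-Nd4l (-0.0717 with the covariate), and Uqcrb (-0.00567 with log2 of mean TPM). Without a single tumor the range was -0.44 to 0.34 for mt-Rnr2, -0.0829 to 0.46 for mt-Nd1, -0.21 to 0.85 for mt-Nd2, -0.12 to 0.35 for mt-Co2, -0.81 to 0.61 for mt-Atp8, -0.52 to 0.25 for mt-Atp6, -0.13 to 0.45 for mt-Nd4, -0.21 to 0.25 for mt-Nd5, and -0.0628 to 0.58 for mt-Nd4l.

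In R499 minus B16 the sign changed for mt-Nd2 (-0.0233 under 10%), mt-Nd5 (-0.27 under 10%, -0.13 to 0.29 without a single tumor), and mt-Nd4l (0.10 with all cells, 0.29 over 2000 genes, 0.26 with log2 of mean TPM, 0.44 with the covariate, -0.67 to 0.35 without a single tumor).

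In R499 minus B16PD1, under 10%, it changed for mt-Nd1 (-0.00513), mt-Nd2 (-0.26), mt-Co1 (-0.12), mt-Nd4 (-0.0311), and mt-Nd5 (-0.25). It also changed for mt-Atp8 (-0.32 with the covariate), mt-Nd4 (-0.00192 with all cells), mt-Nd5 (-0.0408 with all cells, -0.14 over 2000 genes), and mt-Nd4l (0.11 with log2 of mean TPM, 0.51 with the covariate). Without a single tumor the range was -0.00787 to 0.53 for mt-Nd1, -0.41 to 0.65 for mt-Nd2, -0.10 to 0.23 for mt-Co1, -0.0607 to 0.52 for mt-Nd4, -0.17 to 0.29 for mt-Nd5, and -0.93 to 0.0855 for mt-Nd4l.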
